A study of Mus musculus with 20 samples.

Results

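Tumors labelled GEM-PNST, which are peripheral nerve sheath tumors that arose in genetically engineered mice, were compared with tumors labelled paraspinal tumor by RNA sequencing, using 4 libraries of each kind out of 20 in the whole series. The 8 libraries were chosen by their titles, with earlier results of these data known, and the 12 neurofibroma libraries were not used here. All 8 tumors carry the label Ink4a/Arf+/-; Nf1fl/fl; DhhCre on the C57BL/6J strain, so both groups share 1 disrupted copy of Ink4a/Arf and the removal of floxed Nf1 by DhhCre, and no control without these alleles is part of the comparison. DhhCre is a recombinase driven by the desert hedgehog promoter, which is active in the Schwann cell lineage, so other cells of the tumor keep Nf1. The mice received no drug and were kept until a set time or tumor size, and the labels give no age. The paraspinal tumors are divided by the labels into subgroup 1 (2 libraries) and subgroup 2 (2 libraries), which are called sub-clusters there and may have been drawn from these same expression values. Total counts ran from 16282605 to 24314222 per library, and all 8 libraries came from 1 sequencing run. Nothing in the labels ties each library to an animal of its own. The count columns of subgroup 1 library 1 and GEM-PNST library 2 have names that differ only in the case of 1 letter and in the last letter. The column names of the 2 subgroup 2 libraries differ only in 1 letter, and those of GEM-PNST libraries 1 and 4 only in the first digit. Whether the tumors of any of these pairs came from 1 animal is not stated, and the main fit treats all 8 libraries as independent. The p-values measure the spread between these samples.

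Schwann cells are the glia of peripheral nerve. They wrap axons, make myelin, and share the nerve with fibroblasts, perineurial cells, macrophages and the axons of neurons whose cell bodies sit in ganglia beside the spine. Neurofibromin, the product of Nf1, turns off RAS, and its loss in the Schwann cell lineage gives rise to neurofibromas, benign tumors that still hold axons and many other cell types. The Ink4a/Arf locus (Cdkn2a) encodes p16 and p19, which restrain the cell cycle through RB and p53, and its loss is known to accompany progression to atypical neurofibroma and to malignant peripheral nerve sheath tumor.

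Several libraries stood apart within their group. GEM-PNST library 1 was highest of all 8 in each of 12 transcripts of antigen-presenting and other leukocytes looked at after their values were seen, with 36179 CPM of Cd74, the MHC class II invariant chain, against 441 to 7386 CPM in the others, and 2282 CPM of Cd207, a lectin of Langerhans cells, against 0 to 2.44 CPM (CPM is the count scaled to a fixed library size, with TMM factors over the 8 libraries). The same library was near 0 for markers of Schwann cells (Sox10, 0.552 CPM) and mesenchyme (Pdgfra, 0.0613 CPM). GEM-PNST library 3 held salivary gland transcripts, summing to 35700 CPM over the marker list against 7.97 to 49.2 CPM in the other 7 libraries. It also was the only GEM-PNST library with Sox10, the transcription factor that defines Schwann cell identity, at the paraspinal level (437 CPM, against 309.9 to 457 CPM in paraspinal libraries and 5.74 CPM or less in GEM-PNST libraries 1, 2 and 4). In GEM-PNST library 4, 30.7% of all counts fell on Rn45s, the ribosomal RNA precursor, against 0.371% to 1.84% elsewhere. Xist exceeded Ddx3y in 2 GEM-PNST libraries and 1 paraspinal library, so both groups mixed the sexes. What part these features play in the differences below was not tested. Of the 114 genes named here that passed the test, 19 did not pass without GEM-PNST library 1, 4 without library 3 and 43 without library 4.

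**Figure D1:**
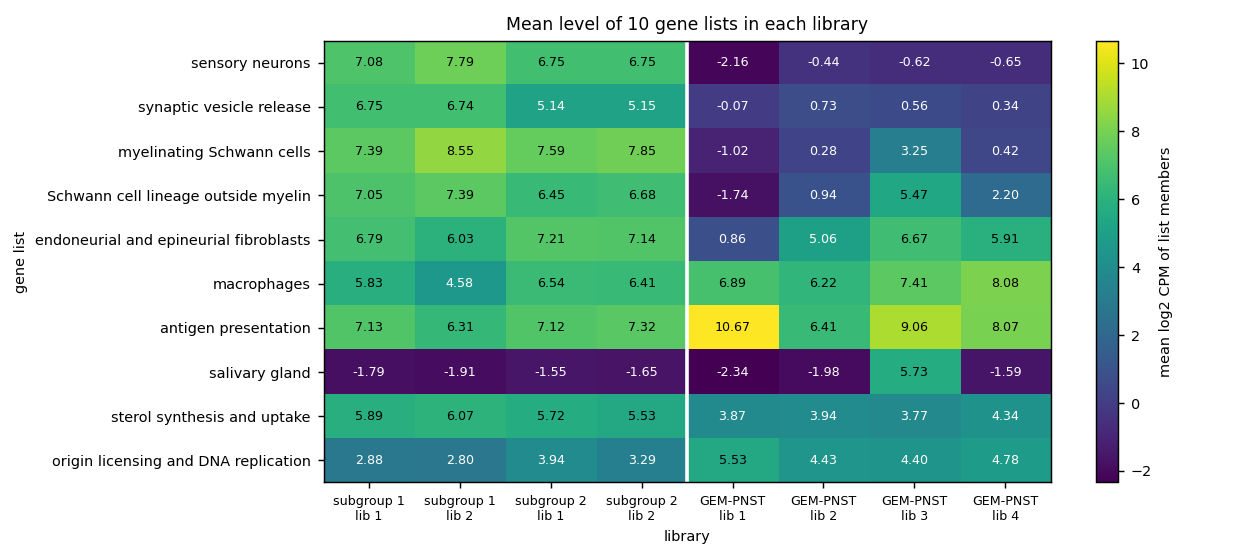
Mean log2 CPM of the members of 10 gene lists (rows) in each library (columns; paraspinal left of the white line, GEM-PNST right). Sensory neuron transcripts averaged 6.75 to 7.79 in the paraspinal libraries and -2.16 to -0.44 in the GEM-PNST libraries, while the Schwann cell lineage list ran from -1.74 to 5.47 within GEM-PNST, highest in library 3.

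Across the transcriptome, 1785 of 14850 genes tested (12%) passed an adjusted p of 0.05, 492 of them higher (3.31%) and 1293 lower (8.71%) in GEM-PNST. The median log2 fold change over all genes tested was 0.024. Neuronal, myelin and lipid synthesis transcripts made up the lists with the largest shares of lower genes, and DNA replication genes the list with the largest share of higher genes among those plotted below. Of the lower genes, 131 had 0 counts in all GEM-PNST libraries, whereas no higher gene had 0 counts in all paraspinal libraries. The groups did not overlap in 4274 genes (28.8%), with GEM-PNST above in 1665 (11.2%) and below in 2609 (17.6%). The count of calls rested on single libraries: it was 644 and 603 without subgroup 1 library 1 or 2, 948 without subgroup 2 library 2 and 955 without GEM-PNST library 4, and the higher genes numbered 31, 30, 69 and 152 in the same fits. Without GEM-PNST library 3 the higher genes rose in number to 791. The main fit and all 8 fits with a library left out shared 545 lower genes (42.2% of the lower calls) and 24 higher genes (4.88% of the higher calls), and a gene named below as called in every fit is one of these. For called genes outside this set the number of the 8 fits with a library left out that kept the call is given.

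**Figure D2:**
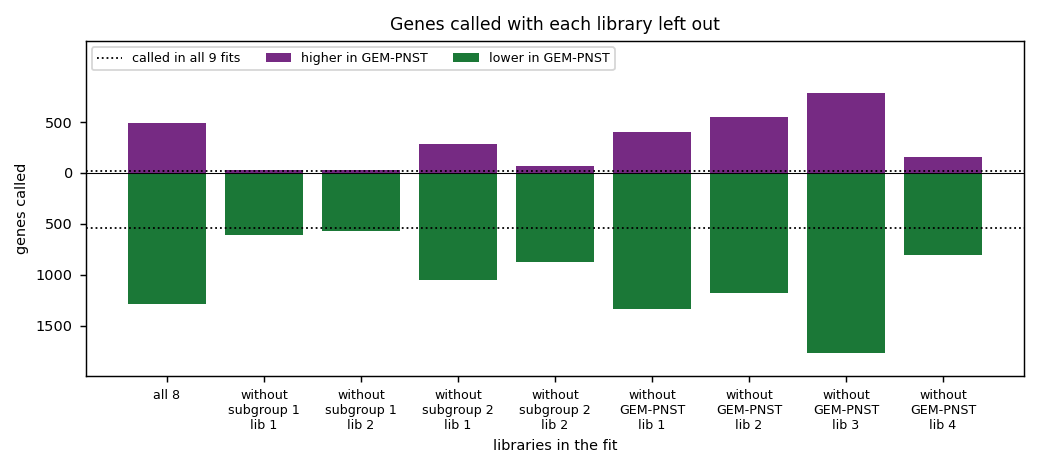
Genes called (adjusted p under 0.05) higher (bars above 0) or lower (bars below 0) in GEM-PNST with all 8 libraries and with each library left out in turn. Without a subgroup 1 library the higher genes drop from 492 to 31 or 30, and the dotted lines mark the 24 higher and 545 lower genes called in all 9 fits.

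The alleles that both groups carry were read first. Nf1 (chromosome 11, 79339693 to 79581612 on GRCm38, as for all positions here) had 92.3, 89.8, 41.1 and 35.9 CPM in subgroup 1 libraries 1 and 2 and subgroup 2 libraries 1 and 2, the order used for paraspinal values throughout. GEM-PNST libraries 1 to 4 had 27.8, 20.7, 25.4 and 26.8 CPM. All 4 GEM-PNST libraries lay below all paraspinal ones, with subgroup 2 closer to them, and Nf1 fell by 1.36 in log2 units (adjusted p = 0.0462, SE 0.36). That call held in 2 of the 8 fits with a library left out, with an adjusted p of up to 0.147. Cdkn2a (chromosome 4, 89274471 to 89294653) had 15.6, 8.09, 20.3 and 36.4 CPM in paraspinal and 5.03, 0.498, 7.04 and 10 CPM in GEM-PNST libraries, where library 2 was lowest and library 4 overlapped with the paraspinal range (log2 fold change -1.83, adjusted p = 0.151, SE 0.81). Its neighbor Cdkn2b, which encodes the CDK inhibitor p15 (chromosome 4, 89306299 to 89311039), had 28.8, 25.8, 60.6 and 76.2 CPM and 27.7, 2.69, 51.2 and 74.6 CPM, lowest again in GEM-PNST library 2 (log2 fold change -0.29, adjusted p = 0.82, SE 0.81). Counts cover the whole gene and every cell of the tumor, recombined or not, so they do not check the alleles.

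Neuronal transcripts lay far below the paraspinal level. Over all genes tested 8.71% were lower. Among the 24 sensory neuron markers 23 were lower in GEM-PNST and none higher, with a median log2 fold change of -7.58 against 0.024 over all genes tested. Of the synaptic vesicle release genes 24 of 29 were lower (median -6.00), of the neuronal cytoskeleton and axonal transport genes 19 of 25 (median -5.27), of the sodium and calcium channels 12 of 29 (median -3.89), and of the potassium channels 15 of 38 (median -3.54), and in these lists no member was higher. With any 1 library left out, 15 to 24 sensory neuron markers, 16 to 25 synaptic genes, 10 to 20 cytoskeleton and transport genes, 10 to 16 sodium and calcium channels and 8 to 23 potassium channels were lower, the fewest sensory markers (15) without subgroup 1 library 1 or 2 or GEM-PNST library 4. In bulk samples fewer cells of a type and less RNA per cell cannot be told apart, for these and for all lists below.

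Complexin 1 (Cplx1, chromosome 5, 108518554 to 108550024), which clamps and triggers vesicle fusion at synapses, had 282, 394, 213 and 189.7 CPM in paraspinal libraries. In GEM-PNST libraries it had 0.184, 0, 0.149 and 0 CPM, 6 counts in all against 24859. The groups were far apart, and Cplx1 fell by 11.51 in log2 units (adjusted p = 0.00101, SE 0.91). Syt9, a calcium sensor of vesicle release, had 77.5, 68.6, 30.6 and 32 CPM in the paraspinal group and not a single count in GEM-PNST. Taking 3 counts in the whole GEM-PNST group as the limit of what 0 allows, it was at least 1190-fold lower there. Such limits, and the counting intervals given below, cover only the error of counting. Slc17a6, the vesicular glutamate transporter of sensory neurons, had 29, 94.4, 27.2 and 31.7 CPM against 0.123, 0.0996, 0 and 0 CPM, with subgroup 1 library 2 the highest of all. Vamp1, a vesicle SNARE, kept a level of 19.6, 8.57, 11.8 and 10.4 CPM in GEM-PNST libraries against 116, 224, 98.4 and 89.2 CPM in paraspinal ones and fell by 3.39 in log2 units (adjusted p = 0.00357, SE 0.42), so members of 1 list differed widely in how far they fell.

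The axonal cytoskeleton followed. Peripherin (Prph, chromosome 15, 99055174 to 99058978), the intermediate filament of peripheral neurons, had 630.4, 741, 654 and 597 CPM and 0.245, 1.99, 2.13 and 0.328 CPM, close together in the paraspinal libraries. Nefh, the heavy neurofilament, had 395, 751, 306 and 332 CPM and 0, 0.0498, 0.496 and 0.164 CPM and fell by 11.21 in log2 units (adjusted p = 0.00155, SE 1.08). Kif5c, a kinesin motor of axons, fell by 7.02 in log2 units (adjusted p = 0.00189, SE 0.73). Tagln3 (chromosome 16, 45711230 to 45724608), a neuronal actin-binding protein, had the lowest adjusted p of the genes named here: 84.4, 112, 94.5 and 114 CPM against 0.552, 0.996, 0.942 and 1.31 CPM (log2 fold change -6.73, adjusted p = 0.000383, SE 0.35). Sncg, gamma-synuclein, fell from 704, 1120.3, 1073 and 1249 CPM to 11, 3.44, 12.9 and 2.87 CPM. Gnal, a stimulatory G protein subunit, Rufy3, a regulator of axon growth, Dmtn, an actin bundler, and Aplp1, a relative of the amyloid precursor, were lower too, with log2 fold changes of -6.14, -2.86, -4.81 and -4.16. All of these genes were called in every fit with a library left out.

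Channels of pain-sensing and other neurons fell with them. Scn11a, the sodium channel NaV1.9, had 108, 275, 86.5 and 79.8 CPM against 0, 0.0498, 0.149 and 0.246 CPM. Kcnt1, a sodium-activated potassium channel, fell by 7.14 in log2 units (adjusted p = 0.00155, SE 0.70). Cacna2d2, an auxiliary calcium channel subunit, had 1 count over the GEM-PNST libraries, and the paraspinal level was 1310 times as high (95% interval 235 to 51900). Avil, an actin regulator used as a sensory neuron marker, was the 1 marker of its list that did not pass: it had 325, 455, 209 and 167 CPM in paraspinal libraries and 435, 8.27, 1.24 and 4.26 CPM in GEM-PNST libraries, so that library 1, poor in every other marker of the list, lay within the paraspinal range (log2 fold change -1.36, adjusted p = 0.558, SE 1.55, and 24 of 24 markers lower without that library). The list summed to 440 CPM in that library, nearly all of it from Avil.

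Of the signaling lists, few members were called. Of 26 receptor tyrosine kinases 4 were lower and none higher (15.4%, against 8.71% lower over all genes), among them Ret, Ntrk2 and Ntrk3. The count was 2 without any 1 of the paraspinal libraries or GEM-PNST library 2 or 4. Ret, the receptor for GDNF ligands (chromosome 6, 118151745 to 118197718), had 303, 396, 149 and 135 CPM in paraspinal and 0.613, 0.0996, 2.43 and 2.62 CPM in GEM-PNST libraries (log2 fold change -7.42, adjusted p = 0.00516, SE 1.03). Ntrk2 and Ntrk3, receptors for BDNF and neurotrophin 3, were lower with log2 fold changes of -5.31 and -5.87 (adjusted p of 0.0362 and 0.0408), and each kept the call in only 2 of 8 fits with a library left out. Of 30 growth factor ligands 4 were lower and none higher (13.3%; 1 without either subgroup 1 library): Tgfa, an EGF receptor ligand (called in every fit), Nrg3, a neuregulin (6 of 8 fits), and the fibroblast growth factors Fgf1 and Fgf9 (2 of 8 fits each). Fgf1 had 244, 397, 191 and 193 CPM and 0.982, 3.34, 36 and 2.46 CPM, highest among GEM-PNST in library 3. Among axon guidance genes 4 of 42 were lower and none higher, 9.52% and thus near the share over all genes, and 1 was without either subgroup 1 library or GEM-PNST library 4. They included Slit1, a repellent ligand called in every fit, with 25.9, 60.7, 7.37 and 7.39 CPM against 0.307, 0.598, 0.992 and 1.07 CPM, its receptor Robo2 (log2 fold change -4.35, adjusted p = 0.0381, SE 1.07; 2 of 8 fits) and the ephrin Efnb3 (log2 fold change -2.77, adjusted p = 0.0182, SE 0.55; 5 of 8 fits).

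**Figure D3:**
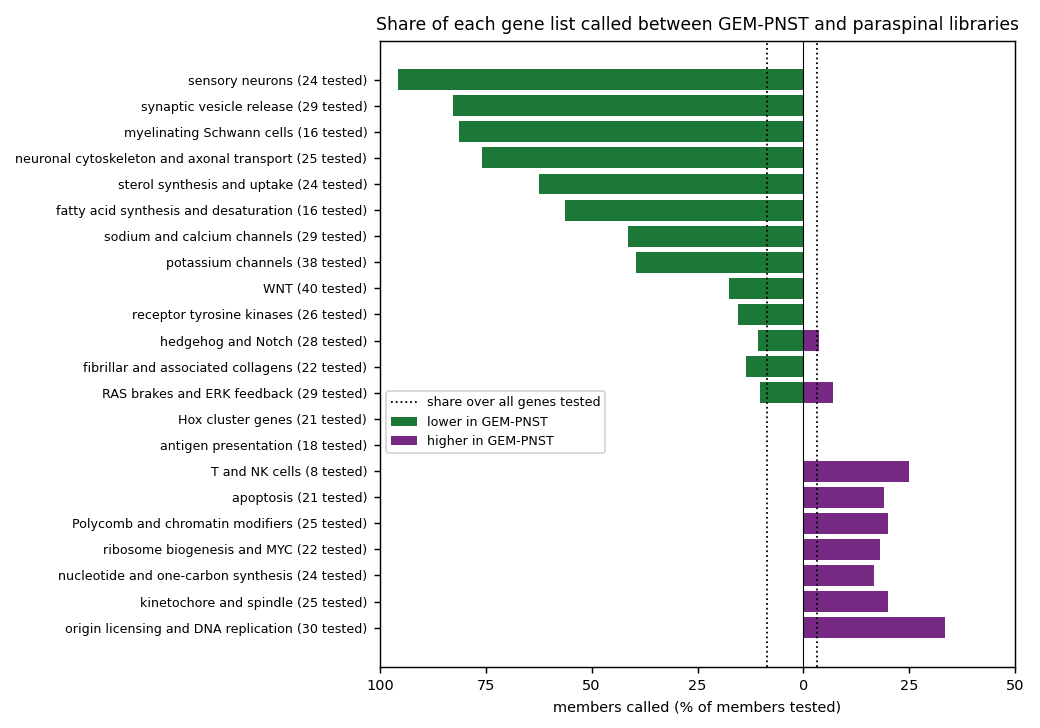
Members of 22 gene lists called lower (left) or higher (right) in GEM-PNST, as a percentage of the members tested, with the share over all genes tested as dotted lines (8.71% lower, 3.31% higher). The neuronal, myelin and lipid lists reach far left of the line, and no Hox cluster or antigen presentation gene was called.

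Myelin transcripts were nearly gone from the GEM-PNST libraries. Of 16 myelinating Schwann cell markers 13 were lower (81.2%, against 8.71% over all genes), with a median log2 fold change of -5.92. All 16 had every GEM-PNST library below every paraspinal library (17.6% of all genes did). Periaxin (Prx, chromosome 7, 27499324 to 27520214), which links the myelin sheath to the matrix, had 697, 1655, 502 and 525 CPM in paraspinal libraries and 0.307, 11.2, 11.4 and 4.34 CPM in GEM-PNST libraries. Ncmap, a myelin adhesion protein, had 97, 192, 76.6 and 126 CPM against 0.123, 0.647, 5.35 and 1.07 CPM, and both were called in every fit. With 1 library left out 9 to 16 markers were lower, 9 without subgroup 1 library 2 or GEM-PNST library 4, but 16 if GEM-PNST library 3 was dropped.

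The wider Schwann cell lineage divided the GEM-PNST libraries. In 9 of 16 lineage markers outside myelin every GEM-PNST library lay below every paraspinal library (17.6% of all genes). DESeq2 and limma-voom called 7 each. Without GEM-PNST library 3 edgeR called 11 of 16 lower, in a fit that called 1774 of 15144 genes lower. With all 8 libraries it called 1 of 16 lower (6.25%, against 8.71% over all genes). The 1 marker was S100b, a calcium-binding protein of Schwann cells, with 401, 848, 440.0 and 789 CPM in paraspinal and 0.184, 0.249, 17.5 and 2.54 CPM in GEM-PNST libraries (log2 fold change -6.92, adjusted p = 0.0277, SE 1.54; 4 of 8 fits). Ncam1, a neural cell adhesion molecule, was present in GEM-PNST libraries 2, 3 and 4 (93.6, 129 and 80.3 CPM, against 247 to 281 CPM in paraspinal libraries) and near 0 in library 1 (0.184 CPM). Satellite glia, the glia that surround neuronal cell bodies in ganglia, had 2 of 10 markers lower (20%, against 8.71% over all genes), but 6 without GEM-PNST library 3 and 1 in each of the other 7 fits with a library left out. They were Fabp7, a fatty acid carrier called in every fit, with 145, 138, 109 and 168 CPM against 1.1, 0, 4.41 and 0.738 CPM, and Slc1a3, a glutamate transporter, with 26.6, 21.3, 20.6 and 24.8 CPM against 0.613, 0.448, 5.55 and 0.656 CPM (1 of 8 fits).

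Genes of sterol synthesis and uptake were the metabolic list with the largest share of lower members. This pathway builds cholesterol from acetyl-CoA and is known to be very active in cells that make myelin. Of 24 members 15 were lower and none higher (62.5%, against 8.71% over all genes), 23 had a negative log2 fold change, and the median was -1.71. In contrast to the Schwann cell lineage list, the count changed little with single GEM-PNST libraries (14 to 16 lower with any 1 left out) and was 9 and 10 without a subgroup 1 library. In log2 CPM the list mean was 5.53 to 6.07 in the paraspinal group and 3.77 to 4.34 in the GEM-PNST group. Neuronal and myelin markers moved with it, with sensory neuron means of 6.75 to 7.79 and -2.16 to -0.44 log2 CPM, and their part in the sterol difference was not tested.

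Hmgcs1 (chromosome 13, 119690379 to 119708260), which makes HMG-CoA at the pathway's start, had 327, 431, 179 and 208 CPM in paraspinal and 10.4, 16.9, 19.8 and 40.7 CPM in GEM-PNST libraries (log2 fold change -3.71, adjusted p = 0.00538, SE 0.52). Sqle, which oxidizes squalene, had 115, 118, 116 and 92.7 CPM against 26.4, 19.5, 18.2 and 26.9 CPM, a narrow spread in both groups. Msmo1 and Nsdhl, which remove methyl groups from the sterol ring, were lower with log2 fold changes of -2.01 and -1.56. Each of these 4 was called in every fit with a library left out. Srebf2, the transcription factor that drives the pathway, overlapped between the groups, with 361 CPM in GEM-PNST library 1 (log2 fold change -0.33, adjusted p = 0.74, SE 0.64). Fatty acid synthesis and desaturation moved the same way, with 9 of 16 members lower (56.2%, against 8.71% over all genes), none higher and 16 of 16 negative. Of its members 4 were lower without either subgroup 1 library and 5 without GEM-PNST library 4. Acss2, which makes acetyl-CoA from acetate, had 61.1, 56.3, 34.7 and 44.2 CPM against 6.26, 2.99, 9.07 and 3.36 CPM. Elovl6, a fatty acid elongase, fell by 2.56 in log2 units (adjusted p = 0.00551, SE 0.36). Scd2, a desaturase of developing nerve, had 2084, 3226, 1036 and 1347 CPM against 302, 250.3, 379 and 204 CPM, and Fads2, which desaturates polyunsaturated fatty acids, fell by 3.72 in log2 units (adjusted p = 0.0117, SE 0.65).

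Promoters of the sterol list are shown because its members moved together. RefSeq promoters (build GRCm38.p6; the 250 bases before the annotated start were searched) matched 16 of the 24 members by symbol. The letters CCAAT, the core of the motif bound by NF-Y, stood on either strand in all 16, both in the 10 members called lower and in the 6 not called, against 37.5% of 27025 genes. In the fatty acid list 8 of 13 matched members held them, 2 of 7 called lower and 6 of 6 not called. The sterol response element spelled TCACNCCAC stood in 1 of the 16 (Hmgcs1) and in 1.22% of all genes. A gene with more than 1 promoter window was counted if any of them held the letters, and not every window of Dhcr7 held CCAAT. The following 3 windows overlap no annotated exon and run 5′ to 3′ on the gene's strand, with CCAAT (or ATTGG, the same letters read on the other strand) and the response element of Hmgcs1 (TCACCCCAC) in capitals.
Hmgcs1, lower in GEM-PNST, chr13:119690101-119690350, plus strand: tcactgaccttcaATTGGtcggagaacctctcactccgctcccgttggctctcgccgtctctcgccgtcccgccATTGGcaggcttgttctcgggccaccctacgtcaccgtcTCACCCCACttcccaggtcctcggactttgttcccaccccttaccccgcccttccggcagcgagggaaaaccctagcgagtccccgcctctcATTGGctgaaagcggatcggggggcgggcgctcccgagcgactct
Sc5d, a sterol desaturase, lower in GEM-PNST (6 of 8 fits), chr9:42264301-42264550, minus strand: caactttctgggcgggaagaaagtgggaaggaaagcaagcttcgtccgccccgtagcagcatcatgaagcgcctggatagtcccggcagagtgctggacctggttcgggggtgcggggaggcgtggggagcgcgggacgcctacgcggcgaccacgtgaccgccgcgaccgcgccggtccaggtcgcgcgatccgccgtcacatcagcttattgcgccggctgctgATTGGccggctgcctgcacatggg
Ebp, a sterol isomerase, not called, chrX:8193513-8193762, minus strand: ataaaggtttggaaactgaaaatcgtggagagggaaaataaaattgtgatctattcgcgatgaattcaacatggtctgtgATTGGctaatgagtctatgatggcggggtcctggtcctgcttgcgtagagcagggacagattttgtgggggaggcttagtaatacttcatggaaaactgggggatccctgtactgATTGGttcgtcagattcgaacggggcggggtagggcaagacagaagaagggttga
The windows of Hmgcs1 and Sc5d stop short of the gene start in GENCODE, the source of the gene positions given here. A match describes these letters in these windows, and no binding was measured.

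Genes of DNA replication were higher in GEM-PNST. Of 30 origin licensing and replication genes 10 were higher and none lower (33.3%, against 3.31% over all genes), all 30 had positive log2 fold changes, and the median was 1.5. The count changed with the libraries in the fit. It was 1 without either subgroup 1 library, 2 without subgroup 2 library 2 and 4 without GEM-PNST library 4. Without GEM-PNST library 3 it was 16. Higher calls over all genes moved too, from 492 to 31, 30, 69, 152 and 791 in these fits. In 22 of the 30 genes every GEM-PNST library lay above every paraspinal library (11.2% of all genes). An unadjusted p under 0.05 was found for 27, while 26 passed by DESeq2 and 18 by limma-voom. Pola2, the regulatory subunit of DNA polymerase alpha (chromosome 19, 5940542 to 5964202), was the member called in every fit, with 10.3, 11.8, 14.1 and 14.6 CPM in paraspinal and 47.9, 37.8, 31 and 42.3 CPM in GEM-PNST libraries (log2 fold change 1.65, adjusted p = 0.00795, SE 0.26). Cdt1, which loads the replicative helicase at origins, had 3.95, 4.25, 12.2 and 5.7 CPM against 59, 46, 20.8 and 35 CPM (6 of 8 fits). Mcm6 and Mcm2, subunits of that helicase, rose by 1.89 and 1.99 on the log2 scale (adjusted p of 0.0172 and 0.0202), and each was called in 5 of 8 fits with a library left out.

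Mitotic genes had positive differences, while the edgeR calls among them depended on which library was left out. In 17 of 25 kinetochore and spindle genes every GEM-PNST library lay above every paraspinal library (11.2% of all genes). Of the 25, 23 had an unadjusted p under 0.05, 22 passed by DESeq2 and 22 by limma-voom. Over all genes these numbers were 5032, 4394 and 2815. All 25 kinetochore and spindle genes had positive log2 fold changes and 5 were higher (20%, against 3.31% over all genes), but none was in the fits without subgroup 1 library 1 or 2, subgroup 2 library 2 or GEM-PNST library 1 or 4, and 17 and 10 were without subgroup 2 library 1 or GEM-PNST library 3. Against subgroup 1 alone 20 members were higher, in a fit that called 588 of all genes higher (3.96%). The fit against subgroup 2 alone called no gene of any kind higher, so it says nothing on mitotic genes in particular. The difference between the subgroups themselves was not tested. Plk1, the polo-like kinase of mitosis, had 2.34, 1.9, 16.4 and 6.8 CPM in paraspinal and 62.4, 57.6, 23.1 and 64.6 CPM in GEM-PNST libraries, so subgroup 2 lay between subgroup 1 and GEM-PNST. Cenpa, the centromeric histone, had 2.51, 1.72, 19.7 and 12 CPM and 105, 78.1, 40.7 and 78.5 CPM in the same order, and Incenp, a scaffold of Aurora kinase B, rose by 1.58 in log2 units (adjusted p = 0.0374, SE 0.39), each of the 3 called in 2 of 8 fits. Of 25 cyclins, CDKs, RB and E2F genes 2 were higher (8%), and none was without subgroup 1 library 1 or 2, subgroup 2 library 2 or GEM-PNST library 2 or 4. They were the mitotic and S phase transcription factors Foxm1 (log2 fold change 2.19, adjusted p = 0.0372, SE 0.54; 3 of 8 fits) and Mybl2 (log2 fold change 2.43, adjusted p = 0.0397, SE 0.61; 2 of 8 fits).

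Supply and repair genes of S phase changed in smaller numbers. Of 24 nucleotide and one-carbon genes 4 were higher (16.7%), but 1 without subgroup 1 library 1 or 2, subgroup 2 library 2 or GEM-PNST library 4, while 8 were if GEM-PNST library 3 was left out. Shmt2, the mitochondrial serine hydroxymethyltransferase, had 33, 25.2, 48.8 and 36.9 CPM against 152, 123, 76.9 and 161 CPM and was called in every fit. Impdh2, which makes guanine nucleotides, and Tyms, thymidylate synthase, rose by 1.34 and 2.25 on the log2 scale, each called in 2 of 8 fits with a library left out. Of 20 homologous recombination and Fanconi genes 2 were higher (10%) and none without either subgroup 1 library: Xrcc3 (1.53, 1.04, 2.46 and 1.97 CPM against 13.7, 7.67, 12.9 and 6.31 CPM, 6 of 8 fits) and Fanca (log2 fold change 2.49, adjusted p = 0.0261, SE 0.54; 5 of 8 fits). Of 22 ribosome biogenesis genes and MYC family members 4 were higher (18.2%), but 0 without either subgroup 1 library or GEM-PNST library 4, against 10 if GEM-PNST library 3 was left out. Myc itself had 15.1, 11.3, 25.3 and 25.1 CPM in paraspinal and 99.9, 64.4, 27.5 and 88.8 CPM in GEM-PNST libraries, with library 3 just above the highest paraspinal library (log2 fold change 1.87, adjusted p = 0.0369, SE 0.46), and Npm1, a nucleolar chaperone, had 112, 105, 198 and 198 CPM against 692, 444, 362 and 711 CPM. Gnl3, nucleostemin, and Fbl, the rRNA methyltransferase fibrillarin, rose by 1.24 and 2.74 on the log2 scale. Myc kept the call in 1 of 8 fits, Npm1 in 5, Gnl3 in 3 and Fbl in 2. Ribosomal protein genes, a list chosen after their values were seen, were higher in 55 of 76, against 3.31% over all genes. The number was 0 without either subgroup 1 library and 2 to 20 without subgroup 2 library 1 or 2 or GEM-PNST library 1, 2 or 4. Many ribosomal protein genes have near-identical copies in the genome, so their counts are uncertain.

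Genes of cell death and of p53 were read beside the cell cycle. Of 21 apoptosis genes 4 were higher and none lower (19% higher, against 3.31% over all genes). Bcl2l11 (BIM), which triggers death by binding BCL2 proteins, had 22.3, 16.6, 15.8 and 15 CPM in paraspinal and 38.6, 88.3, 45.9 and 53 CPM in GEM-PNST libraries (7 of 8 fits). Bmf, a relative of it, had 28.6, 21, 15.8 and 18 CPM against 56.6, 64.2, 45.9 and 42.2 CPM (6 of 8 fits). Apaf1, the core of the apoptosome, rose by 1.48 in log2 units (adjusted p = 0.0266, SE 0.33) and was called in 4 of 8 fits with a library left out. The count of the list fell to 0 without subgroup 1 library 2, to 1 without subgroup 2 library 2 and to 2 without subgroup 1 library 1 or GEM-PNST library 4. The p53 list had 1 higher and 1 lower of 20 (5% each, near the shares over all genes), and none called without subgroup 1 library 1 or 2 or GEM-PNST library 1 or 4. Trp53 itself was higher (55.3, 48.2, 95.8 and 76.4 CPM against 213, 239, 100.2 and 187 CPM, 2 of 8 fits) and Rrm2b, a ribonucleotide reductase subunit induced by p53, was lower (36.2, 41.3, 11.7 and 12.2 CPM against 5.77, 5.73, 8.63 and 5.9 CPM, subgroup 1 well above all others, 3 of 8 fits). Cdkn1a, which encodes p21, had 119, 185, 225 and 262 CPM and 62.5, 143, 72.3 and 52.6 CPM with overlapping groups (log2 fold change -1.26, adjusted p = 0.0708, SE 0.40).

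Regulators of RAS and ERK moved in both directions. Of 29 RAS brakes and ERK feedback genes 2 were higher and 3 lower, near the background of 3.31% and 8.71%. Dusp7 (chromosome 9, 106368632 to 106375724), a phosphatase of ERK, had 28.7, 27.9, 34.6 and 34.1 CPM in paraspinal and 86.4, 120.4, 70.9 and 73.8 CPM in GEM-PNST libraries and was called in every fit, as was Dusp2, a nuclear ERK phosphatase, with 0.722, 0.633, 3.39 and 1.32 CPM against 32.9, 9.66, 31.2 and 18.8 CPM. The lower genes included Nf1 and Rasal2, another RAS GTPase-activating protein. Rasal2 had 100.5, 185, 38.5 and 49.4 CPM against 8.96, 11.9, 13.4 and 17.2 CPM and was called in every fit (log2 fold change -2.86, adjusted p = 0.0146, SE 0.53).

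**Figure D4:**
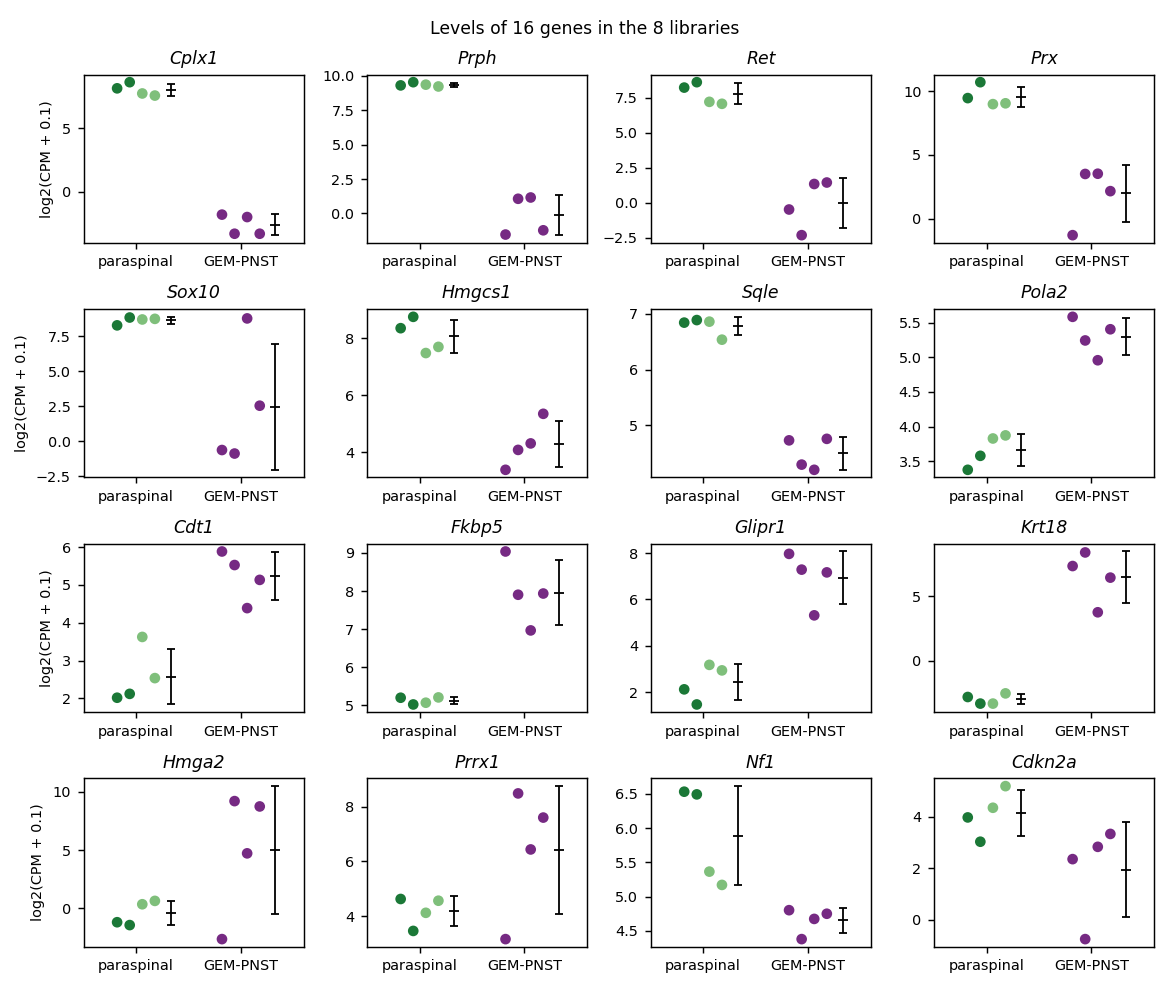
Levels of 16 genes as log2(CPM + 0.1), each point a library (dark green subgroup 1, light green subgroup 2, purple GEM-PNST), with the mean and SD of the 4 libraries of each group as a bar beside the points. Cplx1, Prph, Hmgcs1 and Sqle are lower and Pola2, Fkbp5 and Krt18 higher in every GEM-PNST library, while Sox10, Hmga2 and Prrx1 spread widely within GEM-PNST.

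Chromatin genes included a wide spread within GEM-PNST. Of 25 Polycomb and chromatin genes 5 were higher and none lower (20% higher). Hmga2 (chromosome 10, 120361275 to 120476469), an architectural protein of embryonic cells, had 0.34, 0.271, 1.18 and 1.46 CPM in paraspinal libraries and 0.0613, 586, 26.2 and 427 CPM in GEM-PNST libraries. It was thus abundant in libraries 2 and 4, lower in library 3 and at the bottom of all 8 in library 1, and it passed with a wide error (log2 fold change 8.30, adjusted p = 0.0409, SE 2.12; adjusted p of 0.00804 without library 1). Ezh2, the methyltransferase of Polycomb complex 2, Uhrf1, which recruits DNA methylation maintenance, and Hells, a remodeler of heterochromatin, rose by 1.35, 2.63 and 1.89 on the log2 scale, each called in 2 of 8 fits, as was Hmga2. Hmgb2, a chromatin protein of cycling cells, had 9.98, 11.7, 29.7 and 16.1 CPM against 218, 53.7, 38 and 69.5 CPM (4 of 8 fits). No member was called without subgroup 1 library 1 or 2, subgroup 2 library 2 or GEM-PNST library 4.

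Mesenchymal transcription factors had few called members, and among them Prrx1 also spread widely within GEM-PNST. Of 23 tested, 1 was higher (Runx1, 30.8, 33.8, 42.5 and 38.9 CPM against 55.6, 144, 89.5 and 92.3 CPM, 4 of 8 fits) and 1 lower (Tbx2, 50.8, 44.1, 48.1 and 45.2 CPM against 23.5, 6.47, 21.2 and 12.6 CPM, 3 of 8 fits), 4.35% each and near the shares over all genes. Neither passed without subgroup 1 library 1 or 2, subgroup 2 library 2 or GEM-PNST library 4. Prrx1, a factor of limb and connective tissue mesenchyme, had 24.6, 10.9, 17.3 and 23.5 CPM in paraspinal libraries and 8.83, 359, 86.6 and 194 CPM in GEM-PNST libraries, where libraries 2, 3 and 4 lay above all paraspinal libraries and library 1 below them (log2 fold change 3.09, adjusted p = 0.0605, SE 0.91; adjusted p = 0.00951 without library 1). Without library 1 the list had 4 higher and 1 lower, and without libraries 1 and 3, 6 higher and 2 lower. Among imprinted growth genes Dlk1, a Notch-related ligand of immature cells, was higher with most of its signal in 1 library (0.85, 0.226, 0.59 and 0.402 CPM against 5.09, 8.02, 4.81 and 378 CPM, 4 of 8 fits), and Peg3 was lower, with subgroup 1 far above subgroup 2 (127, 135, 5.01 and 2.63 CPM against 0.0613, 0.199, 0.793 and 0.82 CPM, 4 of 8 fits). These were 1 higher and 1 lower of 16 (6.25% each), and neither was called without either subgroup 1 library.

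Matrix and adhesion lists had few called members, several of them at shares near the 8.71% lower and 3.31% higher over all genes. Of 22 fibrillar and associated collagens 3 were lower and none higher (13.6%), 2 in 6 of the 8 fits, and 5 were lower without GEM-PNST library 3. Col9a2 and Col2a1, collagens known from cartilage, had 68.4, 57.9, 72 and 88.5 CPM and 51.3, 54.5, 115 and 109 CPM in paraspinal libraries. In GEM-PNST libraries Col9a2 had 0, 0.299, 0.149 and 0.164 CPM and Col2a1 0.0613, 0.249, 1.24 and 0 CPM, and both were called in every fit. Col5a3 fell by 2.09 in log2 units (adjusted p = 0.0451, SE 0.55), called in 1 of 8 fits. The integrin Itgb8, which activates TGF-beta, had 77.6, 121, 9.53 and 7.06 CPM against 0, 0.996, 0.645 and 0.82 CPM, with subgroup 2 far below subgroup 1, and was the 1 lower of 20 integrins (5%; 5 of 8 fits). Cdh20, a type II cadherin, had 10.6, 12.7, 7.72 and 10.2 CPM against 0, 0, 0.198 and 0.082 CPM and was called in every fit, 1 of 4 lower of 18 cadherins and protocadherins (22.2%). Cd55, a complement regulator, and Wif1, a WNT antagonist, were the 2 lower of 16 fibroblast markers, 12.5% (Cd55 66.2, 169, 51.2 and 66.9 CPM against 1.35, 0.946, 4.21 and 6.39 CPM, called in every fit, Wif1 11.5, 2.49, 158 and 45.5 CPM against 0, 0, 0.694 and 0 CPM, 3 of 8 fits). Plau, the urokinase protease, was the 1 higher of 27 matrix proteases and inhibitors (3.7%; 2 of 8 fits), with 16.5, 7.19, 36.4 and 23.3 CPM against 34, 428, 144 and 164 CPM; library 1 overlapped with the paraspinal range. Lgals3, galectin 3, was the 1 higher of 27 invasion genes (3.7%; 3 of 8 fits), with 91.2, 121, 166 and 191 CPM against 4649.9, 1237, 333 and 469.7 CPM, highest in library 1.

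Among developmental signals the WNT list had the most called members. Of 40 WNT genes 7 were lower (17.5%, against 8.71% over all genes) and none higher, and 4 to 10 with any 1 library left out, the fewest without subgroup 1 library 1 or subgroup 2 library 2 and the most without GEM-PNST library 3. They held the R-spondins Rspo1 (6.29, 14.1, 8.31 and 10.3 CPM against 0, 0.249, 0.248 and 0.492 CPM) and Rspo2 (8.75, 22.2, 8.4 and 7.42 CPM against 0, 0.0996, 0 and 0.41 CPM), which enhance WNT signaling and were called in every fit. Of 28 hedgehog and Notch genes 3 were lower (10.7%) and 1 higher (3.57%), near the shares over all genes, and 1 lower and none higher were called without either subgroup 1 library. Ptch1, the hedgehog receptor and a target of the pathway, had 222, 119.6, 5.55 and 6.95 CPM against 0.613, 1.25, 0.992 and 2.46 CPM, with subgroup 2 far below subgroup 1 (3 of 8 fits). Notch1 fell by 1.59 in log2 units (adjusted p = 0.0313, SE 0.36), and Hes6, a HES family factor, rose by 1.49 in log2 units (adjusted p = 0.0287, SE 0.33), each called in 4 of 8 fits. Without GEM-PNST library 3 the list had 8 lower members. Of 31 TGF-beta and BMP genes 2 were lower, 6.45% and below the share over all genes, and none was without subgroup 1 library 1 or 2, subgroup 2 library 2 or GEM-PNST library 4. They were the ligands Bmp7 (75, 74.7, 143 and 115 CPM against 0.307, 0, 5.4 and 0.656 CPM, 3 of 8 fits) and Bmp5 (log2 fold change -4.54, adjusted p = 0.0298, SE 1.03; 4 of 8 fits). The 21 Hox cluster genes tested had no member called by edgeR; 3 had an unadjusted p under 0.05, 3 passed by DESeq2 and 1 by limma-voom.

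Epithelial genes moved in both directions. Of 11 keratin and junction genes 2 were higher and 2 lower (18.2% each). Krt18, a simple epithelial keratin, had 3 counts over the paraspinal libraries and 162, 337, 13.4 and 87.1 CPM in GEM-PNST libraries. The ratio was 4870 (counting interval at the 95% level 1670 to 23600), and Krt18 was called in every fit. Its partner Krt8 had 5 counts over the paraspinal libraries and 1.23, 7.72, 10.1 and 729 CPM in GEM-PNST libraries, most of it in library 4 (4 of 8 fits, none without a paraspinal library), so the pair did not share an order among the libraries. Both have processed copies in the genome. Cdh1, E-cadherin, which joins Schwann cell membranes to themselves as well as epithelia, had 69, 154, 57.4 and 52.9 CPM against 1.78, 0.996, 15.4 and 0.656 CPM (1 of 8 fits), and Ocln, occludin, had 5.52, 4.38, 1.77 and 3.47 CPM against 0.184, 0.797, 0.347 and 0.246 CPM (5 of 8 fits). In the hypoxia list of 17, Car9, a carbonic anhydrase, was higher (0.34, 0.226, 0.639 and 0.877 CPM against 10.3, 33.8, 2.33 and 2.62 CPM, 4 of 8 fits) and Ndrg1, also a protein of myelinating Schwann cells, was lower (814, 1357, 608 and 908 CPM against 136, 156, 123 and 54.5 CPM, called in every fit), 5.88% each.

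Immune transcripts spread widely between GEM-PNST libraries. All 18 antigen presentation genes had positive log2 fold changes (median 2.5) and none was called by edgeR, against 11 higher with GEM-PNST library 2 left out; 13 had an unadjusted p under 0.05, 9 passed by DESeq2 and 0 by limma-voom. Cd74 had 1466, 441, 1241 and 1273 CPM in paraspinal and 36179, 937, 7386 and 3577 CPM in GEM-PNST libraries (log2 fold change 3.44, adjusted p = 0.08, SE 1.14), so library 2 overlapped with the paraspinal range. Of 13 macrophage markers 12 were positive and none was called by edgeR (6 had an unadjusted p under 0.05, 5 passed by DESeq2 and 1 by limma-voom), with summed levels of 685 to 2620 CPM in paraspinal and 2010 to 7720 CPM in GEM-PNST libraries. Of 8 T and NK cell markers 2 were higher (25%, against 3.31% over all genes), but none without subgroup 1 library 2 or subgroup 2 library 2, and 6 without GEM-PNST library 2. They were Cd4 (1.02, 0.181, 0.197 and 0.548 CPM against 9.69, 1.74, 21 and 12.9 CPM, 6 of 8 fits) and Cd8a (0.935, 0.316, 0.0983 and 0.475 CPM against 9.32, 0.299, 25.2 and 12.2 CPM, 1 of 8 fits), lowest among GEM-PNST in library 2. The chemokine Cxcl16 was the 1 higher of 25 chemokines and cytokines (41.8, 15.7, 55.8 and 45.3 CPM against 486, 94.1, 189 and 207 CPM, 4% and 4 of 8 fits), and Npc2, a lysosomal sterol carrier, the 1 higher of 23 lysosome and autophagy genes (199, 152, 359 and 332 CPM against 1111, 972, 562 and 746 CPM, 4.35% and 3 of 8 fits).

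The higher genes with the lowest p-values belonged mostly to no list. Fkbp5 (chromosome 17, 28399094 to 28517527), a co-chaperone of steroid receptors, had 36.5, 32.3, 33.3 and 36.7 CPM in paraspinal and 526, 239, 125 and 244 CPM in GEM-PNST libraries, with the paraspinal libraries close together (log2 fold change 3.03, adjusted p = 0.00633, SE 0.44). Glipr1 (chromosome 10, 111985448 to 112002631), a secreted protein first known from glioma, had 4.25, 2.67, 8.95 and 7.57 CPM against 250.5, 156, 39.7 and 144 CPM. Cnn2 (chromosome 10, 79988584 to 79996062), calponin 2 of the actin cytoskeleton, had 65.6, 46.3, 108 and 102 CPM against 1078, 794, 307 and 695 CPM. Apbb1ip (RIAM), which links RAP1 to integrin activation and is abundant in leukocytes, had 10.6, 4.52, 15.3 and 12.6 CPM against 149, 77.5, 65.9 and 97.5 CPM. Vcam1 (chromosome 3, 116109949 to 116129688), an adhesion molecule for leukocytes, had 15, 13.7, 15.4 and 18 CPM against 111, 51.4, 70.2 and 271 CPM, highest in library 4. Cited2, a CBP and p300 partner, had 13.5, 4.75, 13.2 and 11.2 CPM against 74.3, 84.1, 28.8 and 82 CPM. Limd2, Ier5, Arhgap22, Suclg2, Nudt21 and Rrad rose by 2.15, 2.09, 2.08, 2.08, 1.91 and 2.30 on the log2 scale. These 12 genes were called in every fit with a library left out, and GEM-PNST library 3 was the lowest of its group for Fkbp5, Glipr1, Cnn2, Apbb1ip and Cited2.

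Paraspinal subgroup 2 often lay between subgroup 1 and GEM-PNST. Its mean and both its libraries are part of the paraspinal group, so this is a description with no test. All subgroup 2 libraries lay between the subgroup 1 and the GEM-PNST libraries in 1245 of the 1785 called genes (69.7%). That order requires groups that do not overlap, which the test favors, and among all 4274 genes without overlap 2877 (67.3%) had it, so the share among called genes was near that of the genes it can be read against. With subgroup 1 alone against GEM-PNST 1646 genes were called, 588 higher and 1058 lower (7.12%). With subgroup 2 alone 100 were called, all lower (0.673% of the genes tested), among them 8 of the 24 sensory neuron markers, 5 of the 29 synaptic genes and 2 of the 24 sterol genes, in a fit of the same size.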

How the data were processed

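Per the labels' protocols, total RNA (RNeasy Plus Micro Kit) was made into Nextera XT libraries. The values are the authors' raw gene counts, deposited as 1 table of 24062 genes. Per the submitters' processing notes the authors used TopHat, HISAT2 and featureCounts with mm10; versions, roles, annotation and strand setting are not given in the sources used here, so overlapping, antisense and near-identical genes are uncertain. All 8 columns were checked to hold whole numbers and were matched to titles through the deposited sample table; the other 12 columns were not used here.

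Genes that passed edgeR's expression filter over these 8 libraries (14850 genes, 95.57% to 99.91% of each library's counts) entered edgeR's quasi-likelihood F test with TMM factors (edgeR 4.0.16, R 4.3.3), GEM-PNST against paraspinal, with Benjamini-Hochberg adjustment over all of them and a threshold of 0.05. The design had foreseen a filter over all 20 libraries; the filter over the 8 was one of its alternatives and serves as the result here. For CPM, each count was divided by its library's total times the TMM factor. SE is the size of the log2 fold change divided by the square root of F. A group without counts was set to 3 counts to bound a fold, and ratios for 1 to 3 counts have a 95% counting interval. The lowest chi-square per degree of freedom between 2 libraries was 41.6, so none was a repeat of another. The fit was tested on simulated data that held no subgroups and no libraries that stand apart, so that test does not cover these features of the 8 libraries.

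The libraries, gene lists and tests were chosen with earlier results of these data known. Lists are given as counts beside the counts over all genes, with no set test. The rule for naming took Nf1, Cdkn2a and Cdkn2b, up to 15 genes each way with the lowest p (called, no overlap, mean log2 CPM 3 or more), up to 5 called members per list and up to 3 not called with the highest level, and up to 15 genes with subgroup 2 in between; a selection of these was printed. Alternatives were RLE factors, DESeq2 1.42.0, limma-voom (limma 3.58.1) with sample weights, 2 other filters, subgroups as groups of their own or alone, a 2-fold minimum, each library left out, and the replicate number as a block. Fits without GEM-PNST libraries 1 and 3 and without Rn45s were chosen after seeing the data. Positions come from GENCODE vM21. Some members of the lists are not reported here by name.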

Additional observations from a re-analysis of the deposited data

Results flagged for a closer look

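For each named gene, the highest or lowest of the 4 libraries of a group was compared with the others by its gap to the nearest of them, as a share of the group's range of log2 CPM (Dixon's test at the 95% level). Of 248 such groups 18 exceeded it. The test's rate of about 1 in 20 by chance is for values that were not picked beforehand. Most genes here were picked from the calls, so that rate cannot be set against the 18. Where all other libraries of a group have no counts, the ratio is 1 whatever the remaining count.

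GEM-PNST library 3 stood above the other GEM-PNST libraries for Nrg3 (1), Wif1 (1), Slc1a3 (0.862) and Rrm2b (0.927), and below them for Plk1 (0.888) and Cited2 (0.885). GEM-PNST library 1 stood below the others for Ncam1 (0.923), Robo2 (0.861) and Itgb8 (0.839) and above them for Srebf2 (0.879). GEM-PNST library 4 stood above the others for Dlk1 (0.884) and below them for Ebp (0.882), and GEM-PNST library 2 above them for Cacna2d2 (1), a gap that rests on 1 count. Among paraspinal libraries, subgroup 1 library 2 stood above the others for Slc17a6 (0.876) and Rspo2 (0.85) and below them for Cd74 (0.861). Subgroup 2 library 2 stood below the others for Sqle (0.87) and above them for Krt8 (1), which has 5 counts over the paraspinal libraries.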

How the results depend on the processing

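Calls numbered 1761 with RLE factors, 1555 with no filter, 1686 with a minimum of 1 CPM in 4 libraries, 1646 against subgroup 1 alone and 1710 without Rn45s, each within 1.5 times the 1785 of the report. DESeq2 called 4394 (1899 higher, 2495 lower), limma-voom with sample weights 2815 (870 and 1945), the fit with the subgroups as groups of their own 2723 (1256 and 1467), the 2-fold minimum 773 (36 and 737) and subgroup 2 alone 100 (0 and 100). With single libraries left out, calls ran from 603 to 2565, higher genes from 30 to 791 and lower genes from 573 to 1774; the extremes came without subgroup 1 library 2 and without GEM-PNST library 3. Without GEM-PNST libraries 1 and 3 the counts were 2531, 737 and 1794. The cause of these shifts was not tested. The 114 called genes named in the text were picked from the calls of the main fit. Agreement of another tool on the same counts is therefore no separate support for them. Of these 114, 55 were called in every fit with a library left out, 112 of 112 with a value by DESeq2, 103 by limma-voom and 17 against subgroup 2 alone. None changed direction under any alternative. Among genes that were not called, 2 did: Cdkn2b (log2 fold change 0.52 against subgroup 1 alone, 0.02 without subgroup 2 library 2, and -0.79 to 0.1 with single libraries left out) and Srebf2 (0.28 against subgroup 2 alone).

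With the replicate number as a block, 1117 genes were called (137 higher, 980 lower). Numbers 3 and 4 occur only in GEM-PNST, so that difference rests on GEM-PNST libraries 1 and 2 against the paraspinal libraries. Deviations of same-numbered libraries from their group means correlated between -0.068 and 0.077. Paraspinal deviations were taken from the mean of both subgroups, so they also hold the subgroup difference. Subgroup 1 library 1 and GEM-PNST library 2, whose column names are alike, have different numbers and were not in this check. It therefore cannot show whether samples were paired. A fit of all 20 libraries was not run. The lowest level that 3 counts give was 0.11 to 0.246 CPM per library, which limits folds of genes near 0 in GEM-PNST.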

Other observations

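Glycolysis genes divided the GEM-PNST libraries. The list's members summed to 12800 and 16100 CPM in GEM-PNST libraries 1 and 2, to 2820 and 4840 CPM in libraries 3 and 4, and to 4320 to 5240 CPM in the paraspinal libraries, so library 3 lay below and libraries 1 and 2 above every paraspinal library. By edgeR 0 of the 18 tested passed over all genes, and 9 had an unadjusted p under 0.05. DESeq2 called 4 higher and 2 lower, and limma-voom with sample weights called 0 higher and 5 lower, so the direction of the list's calls differed between these tools. Respiratory chain genes summed to 3450 to 5430 CPM in paraspinal and to 7550, 5930, 4610 and 5220 CPM in the GEM-PNST libraries, with 22 of 26 log2 fold changes positive, 0 called by edgeR, 1 at an unadjusted p under 0.05, 1 by DESeq2 and 0 by limma-voom.

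Skeletal muscle transcripts did not follow the stage. Their marker list summed to 1820, 38.5, 849 and 20.8 CPM in the paraspinal libraries and 608, 118, 1260 and 415 CPM in the GEM-PNST libraries. None of the 12 tested passed by edgeR, DESeq2 or limma-voom, and 0 had an unadjusted p under 0.05.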
